A study of Mus musculus with 4 samples.

Results

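The interleukin-1 family was described here through 10 genes chosen by name, 5 encoding ligands or their soluble antagonist (*Il1a*, *Il1b*, *Il1rn*, *Il18* and *Il33*) and 5 encoding receptor chains (*Il1r1*, *Il1r2*, *Il1rap*, *Il18r1* and *Il1rl1*), out of 25239 gene symbols listed for every library. RNA-Seq was performed on lung tumor-infiltrating CD4+ T cells of C57BL/6 mice, in 2 WT libraries and 2 CD4/ALK4-KO libraries. All mice were males of 8 to 10 weeks that were injected intravenously with the ovalbumin-expressing Lewis lung carcinoma line LLC-OVA, and per the labels their tumors were taken between days 18 and 22, whereas the study's methods give an earlier range of days for this model. CD4/ALK4-KO mice carried CD4CreERT2+/- and Acvr1bfl/fl, so that tamoxifen activates a Cre recombinase driven by the *Cd4* promoter and deletes the floxed part of *Acvr1b*, the gene of the activin receptor ALK4, in every cell that uses this promoter. The WT controls were littermates, and whether they carried a floxed allele or received tamoxifen is not given in the sources used here. The cells were enriched from digested tumors over a density gradient and with a CD4+ isolation kit, and neither a sort for these libraries nor the number of animals behind each library is given in the sources used here.

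The libraries held between 11823908 and 13943237 counts on genes. *Acvr1b* had 426 and 342 counts in WT and 322 and 445 counts in CD4/ALK4-KO libraries, and edgeR's quasi-likelihood test gave a log2 fold change of 0.16 (SE 0.24, adjusted p = 0.66), which was -2.18 on the T cell receptor scale defined below. The targeted gene therefore did not separate the labelled genotypes, and counts of the whole gene also hold exons outside the floxed part, so every direction below is between the labelled groups. *Cd4*, the gene of the selection marker, had 759 and 649 counts in WT and 3654 and 4033 counts in CD4/ALK4-KO libraries, which is 2.62 on the log2 scale (SE 0.23, adjusted p = 2.8e-08, edgeR), or 0.27 on the T cell receptor scale. The defining T cell markers were present in all 4 libraries, but so were those of other cells: the macrophage gene *Lyz2* had 52193 to 76926 counts and the fibroblast collagen gene *Col3a1* had 16944 to 38204 counts per library. In such bulk samples, fewer cells of a type and less RNA per cell cannot be told apart.

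Members of the interleukin-1 family are inflammatory signals that act early. IL-1α, encoded by *Il1a*, and IL-1β, encoded by *Il1b*, bind the receptor IL-1R1, which then recruits the accessory protein IL-1RAcP, encoded by *Il1rap*, and signals through MyD88 and IRAK kinases to NF-κB. The receptor antagonist encoded by *Il1rn* occupies IL-1R1 without signalling, and IL-1R2 is a decoy that binds IL-1 but lacks the signalling domain. IL-33 is a nuclear protein of epithelial, endothelial and stromal cells that is released on damage and acts through ST2, encoded by *Il1rl1*, again together with IL-1RAcP, and in the lung ST2 is known from type 2 lymphoid cells, mast cells and tissue regulatory T cells. IL-18 acts through IL-18Rα, encoded by *Il18r1*, and IL-18Rβ, encoded by *Il18rap*, on Th1 and NK cells, where it promotes interferon-γ, and it is held back by the soluble binding protein encoded by *Il18bp*.

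Of the 10 genes, *Il18r1* was higher and *Il33*, *Il1rl1* and *Il1rap* were lower in CD4/ALK4-KO than in WT libraries at an adjusted p under 0.05, and the other 6 were not called. All 10 passed the filter on low counts. The test was edgeR's quasi-likelihood test on the deposited counts with TMM normalization, adjusted over 13919 genes, of which 17.4% were called higher and 15.4% lower. The count of 1 of 10 higher and 3 of 10 lower can be read against these shares, and the median log2 fold change of the 10 genes was -0.089, against -0.0082 for all genes tested. Because the T cell genes differed so strongly in amount, the libraries were also scaled to the summed counts of 7 genes of the T cell receptor complex and its proximal kinases and adaptor (*Cd3d*, *Cd3e*, *Cd3g*, *Cd247*, *Lck*, *Zap70* and *Lat*), called the T cell receptor scale. It gives a gene's amount relative to the summed counts of these 7 genes, written below as per T cell receptor transcript. It shifted the median of all genes by -2.35 on the log2 scale. There all 10 members were lower (median -2.44), as were 93.3% of all genes tested, while 0.194% were higher.

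**Figure D1:**
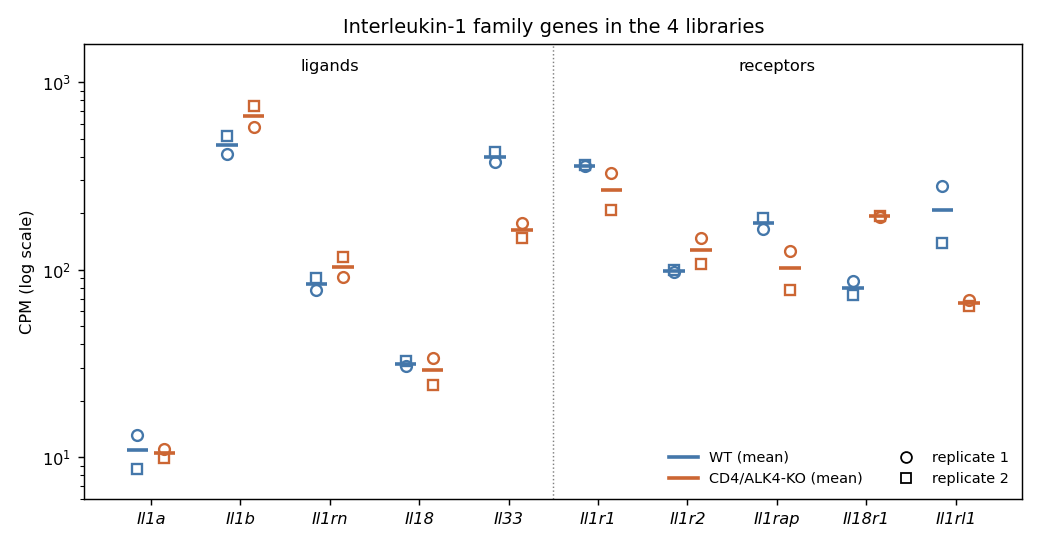
Level of each member in the 4 libraries, as CPM (counts scaled by the TMM-adjusted library size) on a log axis, by genotype, with a circle for replicate 1, a square for replicate 2 and a bar for the mean. *Il18r1* lies at 191 and 194 CPM in CD4/ALK4-KO against 87.0 and 73.2 CPM in WT libraries, an order that turns on the T cell receptor scale, and *Il33* and *Il1rl1* lie lower in both CD4/ALK4-KO libraries.

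**Figure D2:**
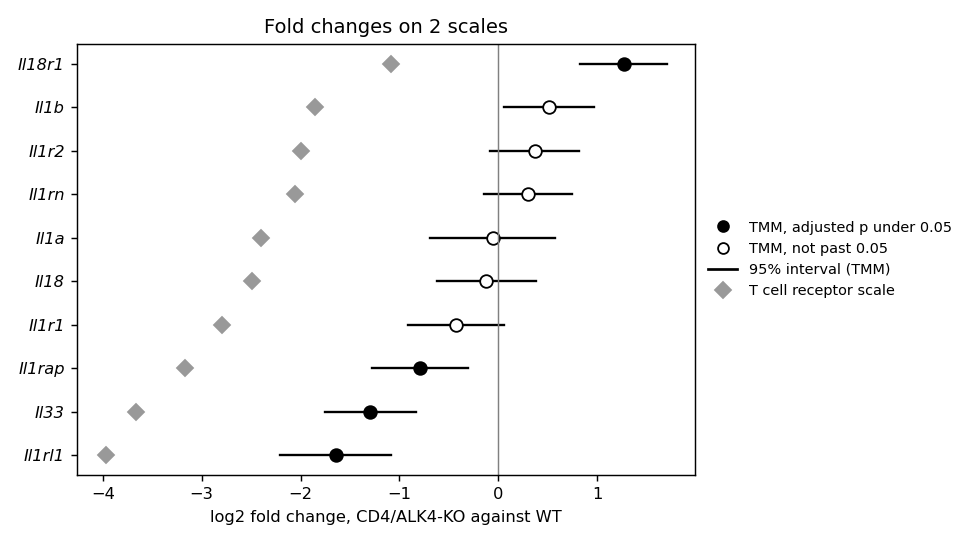
Log2 fold change of each member, CD4/ALK4-KO against WT, with its 95% interval as a line, filled points for an adjusted p under 0.05 and grey diamonds for the T cell receptor scale. With TMM the values run from -1.65 for *Il1rl1* to 1.27 for *Il18r1*, and on the T cell receptor scale all 10 lie below 0, between -3.97 and -1.08.

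*Il33* was the ligand gene that differed most. It lies on chromosome 19 (29925114 to 29960718, GRCm38, plus strand). Its counts were 5132 and 5737 in WT and 2112 and 1833 in CD4/ALK4-KO libraries, or 399 ± 35.1 CPM against 163 ± 20.5 CPM (SD, n = 2 libraries each). Both CD4/ALK4-KO libraries lay below both WT libraries. On the log2 scale the difference was -1.29 (SE 0.22, 95% interval -1.75 to -0.83, adjusted p = 0.00012, edgeR), which is 2.45-fold lower, and -3.66 on the T cell receptor scale. It stayed called whichever library was left out, between -1.40 and -1.17. Markers of the cells where IL-33 is known to reside did not all move with it. The summed level of 11 fibroblast markers was 7403 and 7935 CPM in WT and 5040 and 4249 CPM in CD4/ALK4-KO libraries, and that of 12 epithelial markers 1011 and 980 CPM in WT and 652 and 522 CPM in CD4/ALK4-KO libraries. Within the epithelial list, however, *Epcam* (2.31, or -0.061 on the T cell receptor scale) and *Cdh1* (1.77, or -0.58) were called higher with TMM. The summed level of 10 endothelial markers was higher in CD4/ALK4-KO libraries by CPM, at 131 and 149 CPM against 75.1 and 87.2 CPM in WT libraries. Most of the CD4/ALK4-KO sums came from *Pecam1*, at 106 and 108 CPM against 22.5 and 42.6 CPM in WT libraries. The median log2 fold change of the endothelial list was -0.60 with TMM, or -2.95 on the T cell receptor scale. Their part in the level of *Il33* was not tested.

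*Il1b* was the most abundant member by count. The gene lies on chromosome 2 (129364570 to 129371139, minus strand). It had 5679 and 6982 counts in WT and 6869 and 9257 counts in CD4/ALK4-KO libraries, which is 414 and 516 CPM against 577 and 749 CPM. The groups did not overlap in CPM, with CD4/ALK4-KO replicate 2 standing above the others, but the gap between the nearest libraries of the 2 groups was smaller than that between replicates. *Il1b* had a log2 fold change of 0.51 (SE 0.22, 95% interval 0.056 to 0.97) that missed the threshold in edgeR's quasi-likelihood test (adjusted p = 0.078), and a value of -1.85 on the T cell receptor scale. Without CD4/ALK4-KO replicate 1 it was 0.72 and called higher. By edgeR the adjusted p of *Il1b* ran from 4.0e-12 to 0.59 over all alternatives. The lowest was on the T cell receptor scale, where *Il1b* was lower. Among markers of myeloid cells, a known source of IL-1β, the summed levels of the most abundant lists overlapped between the groups: 14 macrophage and monocyte markers summed to 7612 and 8785 CPM in WT and 7746 and 7187 CPM in CD4/ALK4-KO libraries, and 12 neutrophil markers to 1105 and 1584 CPM in WT and 1729 and 1071 CPM in CD4/ALK4-KO libraries. The sums of 7 dendritic cell markers (100 and 116 CPM in WT, 208 and 192 CPM in CD4/ALK4-KO libraries) and of 10 mast cell and basophil markers (181 and 187 CPM in WT, 221 and 217 CPM in CD4/ALK4-KO libraries) did not overlap and were higher by CPM in CD4/ALK4-KO libraries. The macrophage and monocyte sum came mostly from *Lyz2*. Within that list *Csf1r* (0.70) and *Ccr2* (0.63) were called higher with TMM, 1 marker was lower and 11 were not called. Of the neutrophil markers *Csf3r* (1.05), *Cxcr2* (0.76) and *Ltf* (0.96) were higher with TMM, none was lower and 9 were not called. These counts were near the 17.4% higher and 15.4% lower among all genes tested. On the T cell receptor scale all markers of both lists were lower. The part of these cells in the level of *Il1b* was not tested. Exons of *Il1b* share 25 bp with the antisense gene *Il1bos*. The kit does not mark strand, but reads of 75 bp reach beyond this stretch, so bases outside it can assign them.

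*Il1a*, the neighbour of *Il1b* on chromosome 2 (129299610 to 129309972, minus strand), was the least abundant member. It had 180 and 118 counts in WT and 132 and 123 counts in CD4/ALK4-KO libraries. Its groups overlapped, with a log2 fold change of -0.055 (95% interval -0.69 to 0.58, adjusted p = 0.91, edgeR). The sign rested on single libraries, as the value was 0.27 without WT replicate 1 and 0.020 without CD4/ALK4-KO replicate 2. An antisense gene, *Gm14023*, shares 222 bp of exon with it, so that its counts are uncertain.

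*Il1rn* (chromosome 2, 24336853 to 24351494, plus strand) had 78.4 and 90.1 CPM in WT and 91.2 and 117 CPM in CD4/ALK4-KO libraries. The nearest libraries of the 2 groups were about equal. *Il1rn* had a log2 fold change of 0.30 (SE 0.22, 95% interval -0.14 to 0.75, adjusted p = 0.30, edgeR), or -2.06 on the T cell receptor scale. Without CD4/ALK4-KO replicate 1 *Il1rn* was at 0.50 and called higher. By edgeR its adjusted p ran from 6.7e-14 to 0.77 over all alternatives, the lowest on the T cell receptor scale, where it was lower. *Il18* (chromosome 9, 50554827 to 50581840, plus strand) had 30.8 and 32.5 CPM in WT and 33.7 and 24.4 CPM in CD4/ALK4-KO libraries. The WT values lay between the CD4/ALK4-KO values. The log2 fold change of *Il18* was -0.12 (95% interval -0.62 to 0.38, adjusted p = 0.74, edgeR), and 0.092 without CD4/ALK4-KO replicate 2.

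The receptor genes *Il1r2*, *Il1r1*, *Il1rl1* and *Il18r1* lie in this order on the plus strand of chromosome 1, in a cluster of 6 protein-coding genes that spans 478 kb (40074079 to 40551705, GRCm38) and also holds *Il1rl2* and *Il18rap*. The closest pair is *Il1rl1*, which ends at 40465415, and *Il18r1*, which starts at 40465552, with 136 bases between them. These neighbours moved in opposite directions with TMM, *Il1rl1* by -1.65 and *Il18r1* by 1.27 on the log2 scale, while on the T cell receptor scale both were lower, by -3.97 and -1.08. To show what lies upstream of the members that differed most, the RefSeq bases before their starts are given here (GRCm38.p6, plus strand, 5′ to 3′), with the GATA motif AGATAA or its reverse complement in capitals. Bases inside annotated exons are left out, so that the stretch of *Il18r1* begins after the end of *Il1rl1* and is the whole stretch between the neighbours.
Il1rl1, first start, chr1:40429320-40429569: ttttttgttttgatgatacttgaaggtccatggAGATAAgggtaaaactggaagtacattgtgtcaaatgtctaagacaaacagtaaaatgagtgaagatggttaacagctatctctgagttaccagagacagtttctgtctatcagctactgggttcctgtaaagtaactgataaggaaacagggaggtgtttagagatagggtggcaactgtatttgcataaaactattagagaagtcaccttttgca
Il1rl1, second start, chr1:40439379-40439626: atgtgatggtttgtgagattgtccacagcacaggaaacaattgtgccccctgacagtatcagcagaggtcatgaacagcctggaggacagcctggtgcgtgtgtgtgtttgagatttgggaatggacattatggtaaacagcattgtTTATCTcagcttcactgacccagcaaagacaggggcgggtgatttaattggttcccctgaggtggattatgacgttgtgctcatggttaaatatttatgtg
Il18r1, first start, chr1:40465416-40465551: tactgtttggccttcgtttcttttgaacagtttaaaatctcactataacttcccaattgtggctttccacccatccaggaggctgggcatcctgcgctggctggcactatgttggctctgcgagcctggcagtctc
Il33, first start, chr19:29924863-29925112: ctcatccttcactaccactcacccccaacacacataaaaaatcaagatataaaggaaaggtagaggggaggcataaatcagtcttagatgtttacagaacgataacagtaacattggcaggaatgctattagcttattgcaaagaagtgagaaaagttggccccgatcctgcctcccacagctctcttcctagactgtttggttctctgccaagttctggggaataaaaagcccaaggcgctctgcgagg

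A RefSeq entry was found for 10 of the 10 members, with 17 starts in all, and windows of 250 bases before each start were searched on both strands for 4 short motifs. The GATA motif, spelled out above, occurred in the windows of 1 member, *Il1rl1*, at both of its starts, and in 9.99% of 32851 promoters genome-wide. The AP-1 motif (TGANTCA) occurred upstream of 2 members, *Il1a* and *Il1rn*, and in 6.75% of all promoters. The PU.1 motif (GAGGAA) occurred in the windows of 2 members, *Il1a* and the last start of *Il18r1*, and in 23.3% of all promoters. The *Il18r1* window with this match lies inside the gene and has 91 bases in annotated exons, and its exon-free stretch held no motif. The NF-kappaB motif occurred in the windows of 1 member, before the second start of *Il1r1*, and in 7.25% of all promoters. This *Il1r1* window (40266336 to 40266585) lies inside the gene, and the window before the first start held no match. The stretches printed for *Il18r1* and *Il33* held none of the 4 motifs. These are matches of letters and were not measured as binding.

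*Il18r1* was the member called higher. It had 1193 and 991 counts in WT and 2278 and 2403 counts in CD4/ALK4-KO libraries, or 80.1 ± 9.74 CPM against 193 ± 2.30 CPM (SD, n = 2 libraries each). The 2 CD4/ALK4-KO libraries were nearly equal and lay above both WT libraries. *Il18r1* rose by 1.27 on the log2 scale (SE 0.21, 95% interval 0.83 to 1.71, adjusted p = 9.1e-05, edgeR), which is 2.41-fold. On the T cell receptor scale, however, it was lower, at -1.08 (adjusted p = 4.7e-05, edgeR). By edgeR the adjusted p ran from 1.0e-09 to 0.015 over all alternatives, and both of these ends belong to fits in which *Il18r1* was higher. The call held whichever library was left out, between 1.15 and 1.40. Markers of the cells known to carry IL-18Rα moved in the same direction with TMM: 12 Th1 and NK genes summed to 204 and 242 CPM in WT and 767 and 759 CPM in CD4/ALK4-KO libraries, and 17 T cell genes to 578 and 543 CPM in WT and 3124 and 2957 CPM in CD4/ALK4-KO libraries. Their part in the level of *Il18r1* was not tested.

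*Il1rl1* showed the largest fold change among the 10 genes. Its counts were 3845 and 1876 in WT and 826 and 797 in CD4/ALK4-KO libraries, which is 280 and 139 CPM against 69.3 and 64.5 CPM. WT replicate 1 stood far above WT replicate 2, and both lay above the CD4/ALK4-KO libraries, which were close to each other. *Il1rl1* had a log2 fold change of -1.65 (SE 0.27, 95% interval -2.21 to -1.08, adjusted p = 0.00012, edgeR), which is 3.13-fold lower, or -3.97 on the T cell receptor scale. The size rested on the WT libraries, with -1.05 without WT replicate 1 (adjusted p = 0.016) and -2.07 without WT replicate 2, called in both cases (adjusted p from 1.6e-39 to 0.016 over all alternatives). With TMM, most markers of the cells named above as carrying ST2 did not fall with it. Of the regulatory T cell markers all 11 were higher with TMM (median 2.31, or -0.066 on the T cell receptor scale). Of 9 mast cell and basophil markers tested 2 were higher and none was lower with TMM (median 0.49, or -1.91 on the T cell receptor scale). Among all genes tested 17.4% were higher and 15.4% lower, so the mast cell and basophil count was near these shares. Leaving out WT replicate 1 gave 1 higher mast cell and basophil marker, and leaving out CD4/ALK4-KO replicate 2 gave 4. Among 8 type 2 lymphoid markers tested, 6 were higher and 1, *Areg*, was lower with TMM (median 2.12, or -0.24 on the T cell receptor scale). *Il13* was listed at 0 in all 4 libraries and *Il5* in 3 of 4. Of the other cell type lists, the fibroblast and epithelial (both -0.69), endothelial (-0.60) and macrophage and monocyte (-0.26) lists had medians below 0 with TMM. The rest had medians above 0. On the T cell receptor scale only the T cell and B cell medians were above 0. Counts of the whole gene do not separate the 5 annotated transcripts of *Il1rl1*. The part of any of these cells in the level of *Il1rl1* was not tested.

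**Figure D3:**
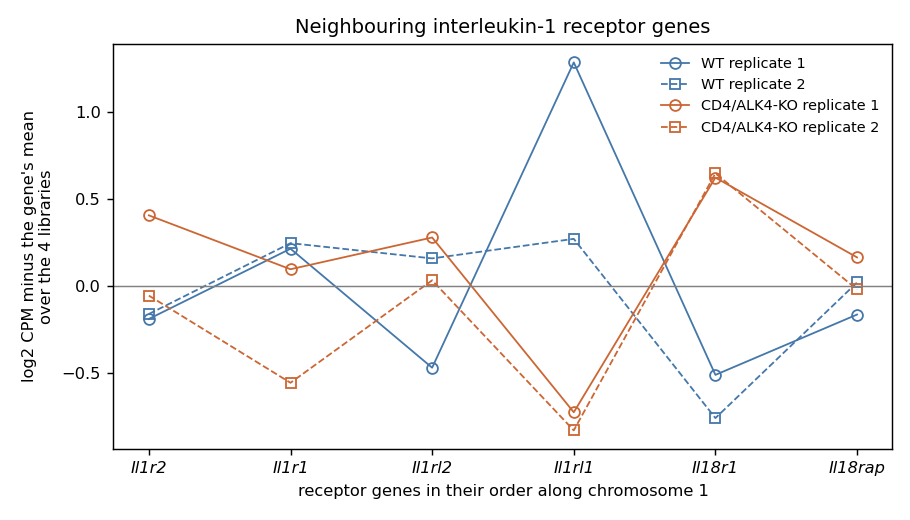
Level of the 6 receptor genes of the chromosome 1 cluster in each library, as log2 CPM minus the mean of that gene over the 4 libraries, with the genes in their order along the chromosome. *Il1rl1* and *Il18r1*, which adjoin each other, run in opposite directions between the genotypes with TMM, and both run lower in CD4/ALK4-KO libraries on the T cell receptor scale.

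*Il1r1* (chromosome 1, 40225080 to 40317257) had 355 and 363 CPM in the WT libraries and 328 and 208 CPM in the CD4/ALK4-KO libraries. The WT libraries were nearly equal, whereas CD4/ALK4-KO replicate 2 stood well below replicate 1. *Il1r1* had a log2 fold change of -0.42 (SE 0.23, 95% interval -0.91 to 0.060, adjusted p = 0.17, edgeR), and -0.76 and called without CD4/ALK4-KO replicate 1 (adjusted p = 0.00057, with 4.0e-23 to 0.61 over all alternatives). *Il1r2*, the decoy receptor gene (chromosome 1, 40074079 to 40125231), had 97.7 and 99.6 CPM in WT and 148 and 107 CPM in CD4/ALK4-KO libraries. Here CD4/ALK4-KO replicate 1 stood above the others. The log2 fold change of *Il1r2* was 0.37 (SE 0.22, 95% interval -0.080 to 0.82, adjusted p = 0.20, edgeR), or -2.00 on the T cell receptor scale. Without CD4/ALK4-KO replicate 2 it was 0.58 and called higher. By edgeR its adjusted p ran from 2.4e-13 to 0.61 over all alternatives, the lowest on the T cell receptor scale, where *Il1r2* was lower.

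*Il1rap*, which encodes the chain shared by the IL-1 and IL-33 receptors, lies outside the cluster, on chromosome 16 (26581704 to 26730117, plus strand). It had 2268 and 2543 counts in WT and 1508 and 959 counts in CD4/ALK4-KO libraries, or 177 ± 15.9 CPM against 102 ± 34.6 CPM (SD, n = 2 libraries each). Both CD4/ALK4-KO libraries lay below both WT libraries, replicate 2 the further. This was a log2 difference of -0.79 (SE 0.23, 95% interval -1.27 to -0.31, adjusted p = 0.012, edgeR), which is 1.73-fold lower, or -3.17 on the T cell receptor scale. The call was lost without WT replicate 1 (-0.88, adjusted p = 0.054) and without WT replicate 2 (-0.70, adjusted p = 0.13, with 4.9e-28 to 0.13 over all alternatives), and it was kept at -0.48 without CD4/ALK4-KO replicate 2 and at -1.16 without CD4/ALK4-KO replicate 1. The antisense gene *Gm20319* shares 353 bp of exon with *Il1rap*, and reads of the pair within this stretch cannot be told apart.

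Ratios of a ligand to its inhibitor or of a receptor to its decoy or partner were taken within each library, where no scaling between libraries enters. With 2 against 2 libraries the smallest p of the exact permutation test is 0.333, so that none of the 5 ratios could pass the threshold. The count of *Il1r2* relative to that of *Il1r1* was 0.275 and 0.274 in WT and 0.451 and 0.515 in CD4/ALK4-KO libraries. This ratio of decoy to signalling receptor differed by 0.81 on the log2 scale without overlap (exact permutation p = 0.333, two-sided). The SD of its log2 values was 0.0025 in WT and 0.14 in CD4/ALK4-KO libraries (n = 2 libraries each). The ratio of *Il18r1* to *Il18rap*, the 2 chains of the IL-18 receptor, was 0.564 and 0.418 in WT and 0.987 and 1.14 in CD4/ALK4-KO libraries, a log2 difference of 1.13 without overlap (exact permutation p = 0.333). *Il1b* to *Il1rn* was 5.28 and 5.72 in WT and 6.32 and 6.42 in CD4/ALK4-KO libraries, a log2 difference of 0.21 (exact permutation p = 0.333). The groups overlapped for *Il1rl1* to *Il1rap*, at 1.70 and 0.738 in WT and 0.548 and 0.831 in CD4/ALK4-KO libraries (exact permutation p = 0.667), and for *Il18* to *Il18bp*, at 0.549 and 0.610 in WT and 0.555 and 0.480 in CD4/ALK4-KO libraries (exact permutation p = 0.667).

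**Figure D4:**
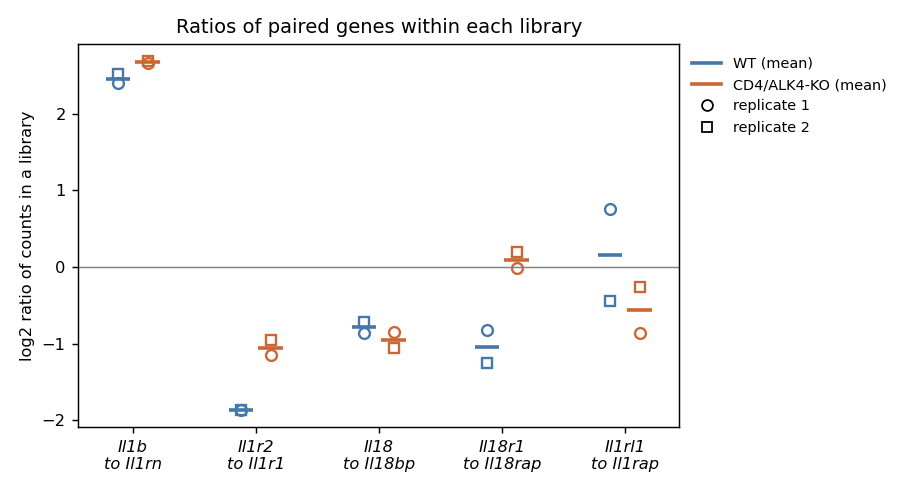
Log2 ratio of 2 counts within each library for 5 pairs of interleukin-1 family genes, by genotype, with a circle for replicate 1 and a square for replicate 2. The pairs *Il1r2* to *Il1r1* and *Il18r1* to *Il18rap* are higher in both CD4/ALK4-KO libraries, by 0.81 and 1.13 on average, and *Il18* to *Il18bp* and *Il1rl1* to *Il1rap* overlap.

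To compare levels between genes, CPM was divided by the length of all exons of each gene in kb (GENCODE M21). In WT libraries the order from the highest level was *Il1b* (244 ± 37.7 CPM per kb), *Il33* (138 ± 12.1), *Il1r1* (56.5 ± 0.887), *Il1r2* (51.7 ± 0.720), *Il18* (30.7 ± 1.19), *Il1rl1* (30.4 ± 14.5), *Il18r1* (16.6 ± 2.02), *Il1rap* (15.5 ± 1.40), *Il1rn* (15.2 ± 1.49) and *Il1a* (5.53 ± 1.58). Neighbours in this order that overlapped between libraries were *Il18* and *Il1rl1*, and *Il18r1*, *Il1rap* and *Il1rn*. In CD4/ALK4-KO libraries *Il1b* was again the highest at 348 ± 64.0 CPM per kb. It was followed by *Il1r2* (66.8 ± 15.0), *Il33* (56.4 ± 7.09), *Il1r1* (42.1 ± 13.3) and *Il18r1* (40.0 ± 0.477), which all overlapped with a neighbour in the order. *Il18* (28.2 ± 6.44), *Il1rn* (18.8 ± 3.25), *Il1rl1* (9.71 ± 0.496), *Il1rap* (8.99 ± 3.05) and *Il1a* (5.33 ± 0.403) came last, and among these *Il1rl1* and *Il1rap* overlapped. The length used matters for the middle of the order. With the longest transcript in place of all exons, 7 members changed rank in WT and 6 in CD4/ALK4-KO libraries, but *Il1b* stayed the highest and *Il1a* the lowest.

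Of 11 other genes of the family, 6 could be tested, and none was called by edgeR's quasi-likelihood test, with 1 at an unadjusted p under 0.05 and 0 called by DESeq2 or by edgeR's likelihood ratio test. On the T cell receptor scale all 6 were lower. *Il18rap*, the partner chain of *Il18r1* in the same cluster, had 2116 and 2374 counts in WT and 2309 and 2107 counts in CD4/ALK4-KO libraries, which gave 0.14 on the log2 scale (adjusted p = 0.65 by edgeR's test) with TMM, or -2.22 per T cell receptor transcript. *Il18bp* was at 0.030, *Sigirr*, an inhibitory receptor of the family, at 0.20, and *Il1rl2*, the IL-36 receptor gene of the cluster, at 0.28, all of them below -2 on the T cell receptor scale. *Il1f9*, which encodes IL-36γ, had 135 and 214 counts in WT and 313 and 190 counts in CD4/ALK4-KO libraries (log2 fold change 0.70, adjusted p = 0.084 by edgeR, with -1.69 per T cell receptor transcript), and without CD4/ALK4-KO replicate 2 it was called, at 1.03. The genes *Il1f5*, *Il1f8*, *Il1f10* and *Il1rapl2* were listed at 0 in all 4 libraries, and *Il1f6* had 1 count in WT replicate 1 only.

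Of 20 receptor-proximal signalling genes, which carry the signal from these receptors, 10 were higher and none was lower with TMM, against 17.4% and 15.4% of all genes tested, with a median log2 fold change of 0.56, while per T cell receptor transcript 19 were lower and the median was -1.81. The 10 were *Myd88*, the adaptor of these receptors (0.63, or -1.71 on the T cell receptor scale), *Irak2*, *Traf6*, *Tollip*, *Map3k7*, *Tab2*, *Tab3*, *Peli1*, *Ikbkb* and *Map3k8*. The ubiquitin ligase gene *Peli1* had the highest value (1.94, adjusted p = 9.7e-07, edgeR), which was -0.42 on the T cell receptor scale and not called there. *Ikbkb*, an IκB kinase gene, was at 1.35 (-1.01 on the T cell receptor scale), its sister kinase gene *Chuk* at 0.38 and not called (-2.00), *Tab2* at 0.59 (-1.77) and the TAK1 kinase gene *Map3k7* at 0.58 (-1.80). Fewer of these genes were called when either WT library was left out, as were fewer among all genes tested. *Peli1* and *Ikbkb* stayed called in both of these fits, and *Traf6* stayed called without WT replicate 2. *Myd88* was at 0.71 without WT replicate 1 and at 0.56 without WT replicate 2, not called in either. *Ube2n* was called lower without CD4/ALK4-KO replicate 1 (-0.63), and *Peli3* without CD4/ALK4-KO replicate 2 (-3.66).

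Among 16 genes of the inflammasomes and of the processing of IL-1β and IL-18, 4 were higher and none was lower with TMM, a count near the 17.4% higher and 15.4% lower among all genes tested, with a median of 0.38, or -1.99 on the T cell receptor scale. The 4 were the sensor genes *Nlrp3* (0.90, or -1.44 on the T cell receptor scale), *Nlrp1b* (1.72, or -0.64), *Aim2* (0.86, or -1.50) and *Mefv* (1.09, or -1.29). Of these, *Nlrp1b* alone passed without WT replicate 1, and 2 genes, *Nlrp1b* and *Mefv*, passed without WT replicate 2. *Casp1*, the protease that cleaves both cytokines, had 84.5 and 86.7 CPM in WT and 90.8 and 84.7 CPM in CD4/ALK4-KO libraries and was not called (0.036, or -2.33 on the T cell receptor scale). The adaptor gene *Pycard* was at 0.49 (adjusted p = 0.077 by edgeR, with -1.87 per T cell receptor transcript), *Naip2* at 0.33 (-2.04), *Nek7* at -0.13 and *Ninj1*, which mediates membrane rupture, at -0.56 (adjusted p = 0.052, edgeR).

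Of 18 genes known to be induced by interleukin-1 in responding cells, 16 were tested, with 4 lower, 2 higher and 10 not called with TMM (median -0.15), a count near the 15.4% lower and 17.4% higher among all genes tested. The 4 lower ones were the chemokine genes *Cxcl1* (-0.67) and *Ccl2* (-0.83), the adhesion molecule gene *Vcam1* (-0.78) and the acute-phase gene *Saa3*. The last had 1918 and 2253 CPM in WT and 1486 and 1001 CPM in CD4/ALK4-KO libraries, which is -0.75 on the log2 scale (adjusted p = 0.010 by edgeR's test), and lost its call when either WT library was left out (-0.86 and -0.63). When either WT library was left out, 1 gene of the list was lower, and *Cxcl1*, *Ccl2* and *Vcam1* were not called. This gene was the matrix metalloproteinase gene *Mmp3*, with 3845 and 1049 counts in WT and 621 and 330 counts in CD4/ALK4-KO libraries, which was not called with all 4 libraries (-2.18, adjusted p = 0.25 by edgeR's test) but was in each fit that left out 1 (-2.83 to -0.98). Without CD4/ALK4-KO replicate 1 the list had 5 genes higher and 6 lower, without CD4/ALK4-KO replicate 2 it had 3 and 5, and without WT replicate 2 it had 1 higher. *Tnfaip3*, an inhibitor of NF-κB, was higher at 1.78 with TMM (-0.57 on the T cell receptor scale). The adhesion molecule gene *Icam1* was higher at 1.01 with TMM (-1.32 on the T cell receptor scale) and was not called without WT replicate 2 (0.84). The prostaglandin synthase gene *Ptgs2* was at -0.39 and not called (adjusted p = 0.16, edgeR). All 16 were lower on the T cell receptor scale.

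Lymphoid markers stood out from those of other cells across the libraries. With TMM all 17 T cell markers were higher, with log2 fold changes from 1.97 to 3.09, while on the T cell receptor scale 15 of them were not called and 2 were higher. The 7 genes of that scale, *Lck* and *Cd3g* among them, belong to these 17 markers. Their values near 0 there follow from how the scale was made. *Lck* was at 2.84 (0.49 on the T cell receptor scale) and *Cd3g* at 2.16 (-0.20), and of the regulatory T cell markers *Ctla4* was at 2.11 (-0.23) and *Ikzf2* at 2.31 (-0.066). All 12 Th1 and NK markers were higher with TMM (median 1.75, or -0.63 on the T cell receptor scale), among them *Stat4* at 1.59 (-0.77) and *Nkg7* at 1.73 (-0.63). Of 6 Th17 and gamma-delta markers tested 4 were higher with TMM, such as *Ccr6* at 2.94 (0.60), and of the type 2 lymphoid markers *Rora* was at 1.88 (-0.49) and *Hs3st1* at 0.013 (-2.33). All 6 B cell markers were higher with TMM (median 2.49, or 0.18), with *Ms4a1* at 2.16 (-0.18) and *Cd79b* at 1.69 (-0.64), and their summed level was 170 CPM in one CD4/ALK4-KO library and 358 CPM in the other.

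The myeloid and non-haematopoietic lists differed less with TMM, and the medians of all of them were below 0 on the T cell receptor scale. Their counts can be read against the 17.4% higher and 15.4% lower among all genes tested. The macrophage and monocyte, neutrophil and endothelial counts were near these shares. With TMM, 2 of 14 macrophage and monocyte markers were higher, none of them when either WT library was left out and 1 without CD4/ALK4-KO replicate 2. Of this list 1 marker, *Chil3*, was lower (-0.83), and *Lyz2* was at -0.15. *Chil3* was not called without WT replicate 2 (-0.61), and 2 macrophage and monocyte markers were lower when CD4/ALK4-KO replicate 1 was left out, while 5 were when replicate 2 was. Of 12 neutrophil markers 3 were higher and none was lower with TMM, and *S100a9* was at 0.0056 (-2.39 on the T cell receptor scale) and *S100a8* at -0.35. Without CD4/ALK4-KO replicate 2, 8 neutrophil markers were higher, without CD4/ALK4-KO replicate 1, 1 was higher and 2 were lower, and 1 and 2 were higher without WT replicates 1 and 2. Of 7 dendritic cell markers 4 were higher and 1 was lower with TMM, with *Itgax* at 1.42 (-0.95) and *Clec9a* at -0.73, the latter not called as any 1 of both WT libraries or CD4/ALK4-KO replicate 2 was left out (-0.78 to -0.57). The mast cell genes *Hdc* and *Cpa3* were at 0.094 (-2.26) and 0.49 (-1.91) and not called. Of 11 fibroblast markers 6 were lower and none was higher (median -0.69), with *Col3a1* at -0.93 and *Dcn* at -0.69, and of 11 epithelial markers tested 5 were lower and 2 higher (median -0.69), with *Krt18* at -1.12 and *Scgb1a1* at -0.73. When either WT library was left out, 4 fibroblast and 2 epithelial markers were lower. *Col3a1* was at -0.90 and not called without WT replicate 1, *Dcn* at -0.44 and not called without WT replicate 2, and *Scgb1a1* was not called without any 1 of the WT libraries or CD4/ALK4-KO replicate 2 (-0.77 to -0.35). Of 10 endothelial markers 2 were lower and 1 was higher with TMM (median -0.60), *Pecam1* at 1.72 (-0.67) and *Kdr* at 0.013 (-2.34). The number lower was 1 when either WT library was left out and 4 without CD4/ALK4-KO replicate 2.

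**Figure D5:**
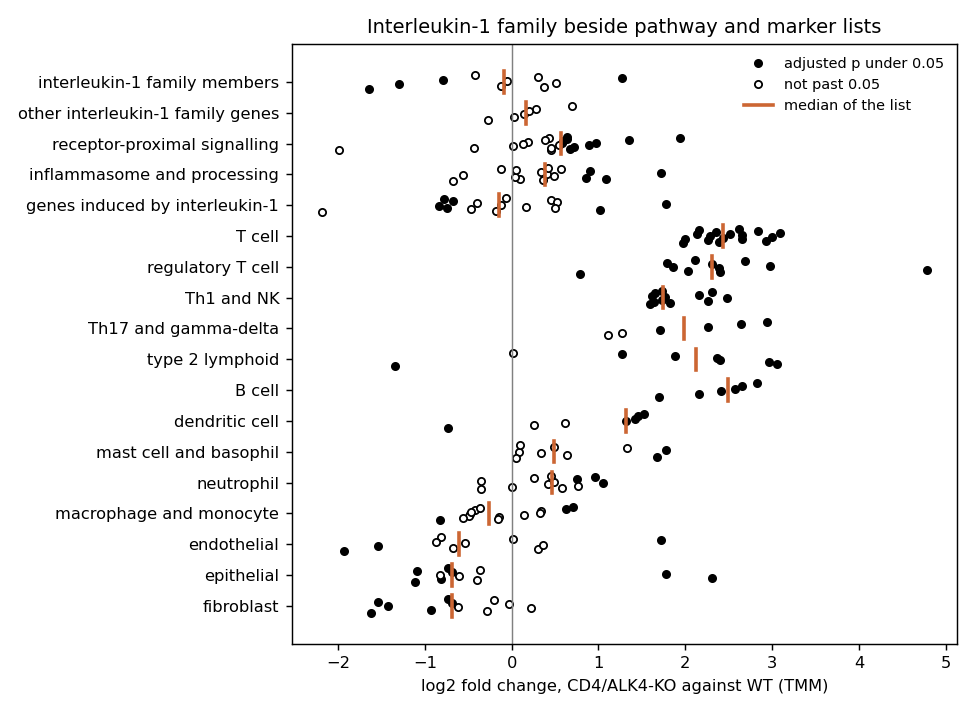
Log2 fold change, CD4/ALK4-KO against WT with TMM, of every gene tested in the interleukin-1 family, in 4 pathway lists and in 13 cell type marker lists, with an orange line at each median. The lymphoid lists lie to the right, with the 17 T cell markers between 1.97 and 3.09, and the fibroblast and epithelial lists have medians of -0.69, while on the T cell receptor scale only the T cell and B cell medians stay above 0, at 0.089 and 0.18. The T cell list holds the 7 genes that set this scale.

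For the ligand and the receptor gene with the highest counts, the genes whose levels ran most alike over the 4 libraries were looked up among the 10460 genes that averaged 100 counts or more, by the root mean square difference of log2 CPM centred on each gene's mean. Nearest to *Il1b* were *Golgb1* (0.017) and *Pcnx* (0.031), with log2 fold changes of 0.50 and 0.53, neither of them called and both below -1.8 on the T cell receptor scale. Nearest to *Il1r1* were *Tcea1* (0.023), *Hus1* (0.024) and *Dynlt3* (0.026). Over 4 libraries such likeness is a description only.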

How the data were processed

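The 4 RNA-Seq libraries were grouped by their sample labels into 2 WT and 2 CD4/ALK4-KO libraries. Single-end reads of 75 bp had been aligned by the authors with HISAT2 (mouse build mm10). HTSeq, in intersection-nonempty mode, gave the whole-number counts that the authors deposited for each gene symbol, with no normalization. Tool versions, the annotation and the strand option are not given in the sources used here, and the TruSeq kit does not mark strand. Replicates are called biological, but p-values measure only the spread between these libraries. Replicates differed by more than sampling noise (chi-square per degree of freedom of 16.1 in WT and 28.7 in CD4/ALK4-KO).

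From the counts, edgeR 4.0.16 in R 4.3.3 kept 13919 genes by filterByExpr, scaled the libraries by TMM and fitted genotype alone with a robust quasi-likelihood fit (glmQLFTest, Benjamini-Hochberg adjustment, threshold 0.05, common dispersion 0.0357). CPM used TMM-adjusted library sizes. The SE was taken as the size of the log2 fold change over the root of its F statistic. Ratios added 0.5 to each count. The script was tested on simulated data, in which all genes had the common dispersion. It called 57.6% of the changed genes in the right direction at a simulated log2 difference of 1. At a difference of 2 it called 99.0%.

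The 10 members, the 17 other gene lists and the tests were chosen with earlier results of these data known. Genes named from the lists were the 2 with the highest mean count (5 in the family, signalling and inflammasome lists) and those in ratios, and for likeness the 3 nearest genes. Of these genes, 2 are not reported here. The called genes of the signalling, inflammasome and induced lists and the remaining undetected family genes were named after their values were seen. So were the called genes of the neutrophil list, *Csf1r*, *Ccr2*, *Areg*, *Il5*, *Il13*, *Mmp3*, *Epcam* and *Cdh1*. Where no symbol matched, the older one was used (4 genes). Positions are those of GENCODE M21 and promoters those of RefSeq. Alternatives were DESeq2 1.42.0, its size factors, upper quartile scaling, the T cell receptor scale, other filters on low counts, edgeR's likelihood ratio test, a replicate block and each library left out. Protein sequences were not used here.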

Additional observations from a re-analysis of the deposited data

How the results depend on the processing

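The 10 members kept their direction and their side of the threshold with DESeq2's Wald test, DESeq2's size factors, upper quartile scaling, edgeR's likelihood ratio test, a minimum of 10 counts per library and no filter on low counts. The replicate numbers are not said to pair the libraries. Deviations from the group mean correlated at -0.26 between same-numbered libraries. With 2 libraries per group these deviations mirror each other, so this value is the same for both pairs and cannot tell whether libraries are paired. With the replicate number as a block, 1 member was called higher and 3 lower, against 1768 genes higher and 1444 lower in all, while *Kdr* turned to -0.0015 and the receptor-proximal signalling genes called fell from 10 to 4. With the numbers crossed, a fit added after seeing the data, 2 members were higher and 4 lower, of 3118 genes higher and 3039 lower.

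On the T cell receptor scale 27 genes were higher and 12986 lower, with 0 members higher and 10 lower (edgeR's quasi-likelihood test). Among the members and the genes named by the rule for lists, log2 fold changes that turned negative there were those of *Il1b* (-1.85), *Il1rn* (-2.06), *Il1r2* (-2.00), *Il18r1* (-1.08), *Acvr1b* (-2.18), *Il18rap* (-2.22), *Il18bp* (-2.33), *Sigirr* (-2.14), *Il1rl2* (-2.10), *Il1f9* (-1.69), *Chuk* (-2.00), *Tab2* (-1.77), *Map3k7* (-1.80), *Ikbkb* (-1.01), *Peli1* (-0.42), *Pycard* (-1.87), *Casp1* (-2.33), *Naip2* (-2.04), *Cd3g* (-0.20), *Ctla4* (-0.23), *Ikzf2* (-0.066), *Stat4* (-0.77), *Nkg7* (-0.63), *Rora* (-0.49), *Hs3st1* (-2.33), *S100a9* (-2.39), *Itgax* (-0.95), *Hdc* (-2.26), *Cpa3* (-1.91), *Cd79b* (-0.64), *Ms4a1* (-0.18), *Pecam1* (-0.67), *Kdr* (-2.34), *Golgb1* (-1.86) and *Pcnx* (-1.83). With upper quartile scaling *Il18bp* (-0.041), *Casp1* (-0.032), *Hs3st1* (-0.055), *S100a9* (-0.062) and *Kdr* (-0.051) turned negative. With the longest transcript in place of all exons, *Il1b* exceeded *Il1a* 91.8-fold per length in CD4/ALK4-KO libraries.

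Leaving out 1 library at a time, 1135 to 2917 genes were called higher and 775 to 2583 lower, the fewest without WT replicate 1 and the next fewest without WT replicate 2 (1394 and 1070). Of the members, 1 to 3 were then higher and 2 to 4 lower: *Il1b* and *Il1rn* joined the higher and *Il1r1* the lower ones without CD4/ALK4-KO replicate 1, *Il1r2* joined the higher ones without CD4/ALK4-KO replicate 2, and *Il1rap* was lost when either WT library was left out. The sign turned within these ranges for *Il1a* (-0.32 to 0.27), *Il18* (-0.35 to 0.092), *Acvr1b* (-0.060 to 0.38), *Il18bp* (-0.078 to 0.15), *Sigirr* (-0.045 to 0.43), *Nek7* (-0.28 to 0.034), *S100a8* (-0.70 to 0.026), *S100a9* (-0.31 to 0.37), *Lyz2* (-0.34 to 0.071), *Hs3st1* (-0.090 to 0.13) and *Kdr* (-0.23 to 0.24). The difference between the genotypes in the log2 ratio of *Il1rl1* to *Il1rap* ran from -1.33 to -0.13. In fits that left 1 library in a group, that library was assumed to vary like the other group. The cause of these changes was not tested.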
